A study of Populus trichocarpa with 378 samples.

Results

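Ptr4CL3 (Potri.001G036900) and Ptr4CL5 (Potri.003G188500) are the 4-coumarate:CoA ligase (4CL) transcripts of the monolignol pathway in Populus trichocarpa. They were taken by identifier as 2 of the 41334 genes of the count table and followed through all 378 libraries. The enzyme 4CL joins coenzyme A to hydroxycinnamic acids such as 4-coumaric and caffeic acid. The thioesters it makes feed the ester and aldehyde steps that lead to monolignols, the building units of lignin, and the xylem isoforms Ptr4CL3 and Ptr4CL5 act together in one protein complex. The tissue was stem-differentiating xylem, the layer scraped from debarked stems in which wood cells form.

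The trees were grown for 6 months in a greenhouse in 6 planting batches, each with 3 wildtype pools. The 360 transgenic libraries came from 136 lines of 45 constructs, and several cloned trees of 1 line were pooled for each library. The monolignol transgenes of the paper were carried in by Agrobacterium and driven by the xylem-specific promoter of Ptr4CL3, itself a member of this pair. For constructs that the paper does not list, such as those aimed at regulators, it does not state the promoter. Trees with the listed constructs thus carried added copies of that promoter and wildtype trees did not. What this does to the level of Ptr4CL3 was not tested. Wildtype trees carried no transgene, so an effect of transformation that all constructs share cannot be told apart from the effects of the constructs. Construct a12 was a knockdown of 4CL3 and a13 a knockdown of 4CL5, both by artificial microRNA. Construct i15 was a knockdown of 4CL3 and 4CL5 together by a hairpin of a cDNA fragment. These constructs stood in batch 6, with 8, 8 and 6 libraries from 3 lines each. The lines had been picked by the study to span degrees of knockdown, and pools of a line share a transformation event. The spread over the pools of a construct therefore mixes differences between lines with differences between pools.

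The other 42 constructs, with 338 libraries, were knockdowns of genes for phenylalanine ammonia-lyase (PAL), the hydroxylases C4H and C3H, hydroxycinnamoyl transferase (HCT), CCoAOMT, CCR, CAD, CAld5H and AldOMT or of regulators, or overexpressed CAD2. The identifiers stand in the table without gene names, and the names of the 2 members were taken as given. The v3.0 numbering places Ptr4CL3 on chromosome 1 and Ptr4CL5 on chromosome 3. Gene lengths and sequences were not used here, so no level of one transcript is compared with a level of the other, only their changes. Markers of xylem and of other tissues were not checked, because no marker could be matched to an identifier. Neither transcript was at 0 in any library, and counts ran from 101 to 84818 for Ptr4CL3 and from 47 to 29322 for Ptr4CL5. Library totals ran from 2.12 to 93.55 M counts, and the 10 most abundant genes held from 2.65 to 64.9% of them. In 12 libraries, none of them of a12, a13 or i15, those genes held more than 20% of the counts. Levels are given as CPM, a count relative to the TMM-scaled library total, or as percent of the mean of the 3 wildtype pools of the batch. In a bulk library, fewer cells of a type and less RNA per cell cannot be told apart.

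Without a transgene, both transcripts moved between plantings. Ptr4CL3 stood at 796, 889 and 986 CPM in the wildtype pools of batch 1 and at 1419, 1498 and 1859 CPM in those of batch 2. Its wildtype level was 961, 1201 and 1652 CPM in batch 3, and 862, 588 and 512 CPM in batch 4. Batches 5 and 6 gave 1423, 704 and 1517 CPM, and 1283, 1096 and 1044 CPM. By batch mean, batch 2 was thus highest and batch 4 lowest for Ptr4CL3. Pools of batches 3, 5 and 6 overlapped, and pools of batch 2 and of batch 4 also overlapped those of other batches.

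Ptr4CL5 was lower in the wildtype pools of batches 4 to 6 than in those of batches 1 to 3 with 1 exception, a batch 4 pool at 231 CPM. The wildtype pools held 217, 299 and 253 CPM in batch 1, 216, 257 and 258 CPM in batch 2, and 285, 278 and 397 CPM in batch 3. They held 231, 137 and 153 CPM in batch 4, 200, 136 and 172 CPM in batch 5, and 185, 160 and 165 CPM in batch 6. The highest and lowest batch means lay 1.28 apart on the log2 scale for Ptr4CL3 and 0.91 apart for Ptr4CL5, the latter between batches 3 and 5. Both differences between batches passed the test (edgeR quasi-likelihood test of all batches together, Benjamini-Hochberg adjusted p = 0.0164 and 0.00446). The same test called 54.5% of all genes, so such a call was common. Leaving out the pool numbered 2 or 3 of every batch ended both calls (edgeR adjusted p = 0.0822 and 0.203 for Ptr4CL3, and 0.0568 and 0.171 for Ptr4CL5). For this reason each construct was read against wildtype of its own batch.

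**Figure D1:**
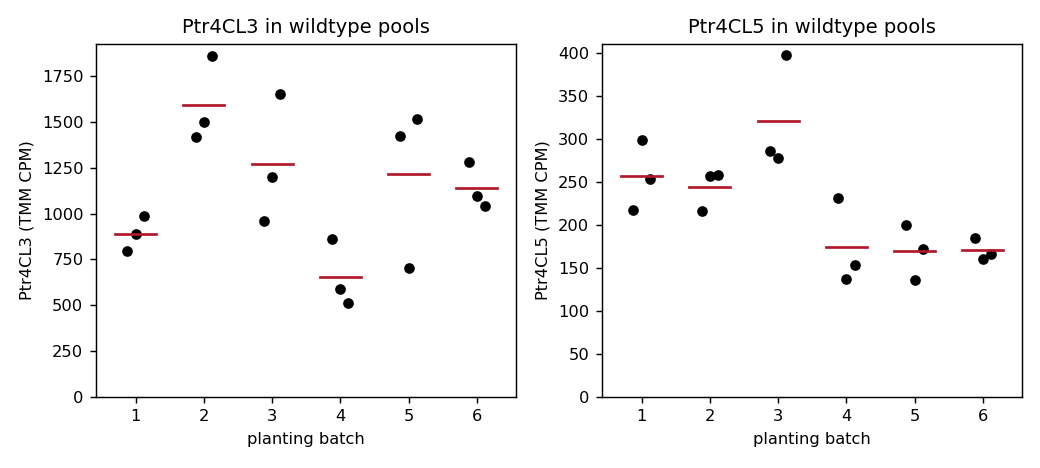
Ptr4CL3 (left) and Ptr4CL5 (right) in TMM-scaled CPM in the 3 wildtype pools (points) of each of the 6 planting batches, with batch means (bars). By batch mean, Ptr4CL3 was highest in batch 2 (1419 to 1859 CPM) and lowest in batch 4 (512 to 862 CPM), and Ptr4CL5 was highest in batch 3 (278 to 397 CPM).

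The first question was how far each 4CL construct lowered its own target and the other member. In i15, directed at both genes, both transcripts were low in every pool. Ptr4CL3 was at 8.03% of wildtype in the single pool of line i15-1, at 3.27 and 7.43% in i15-2, and at 3.40, 0.994 and 4.90% in i15-3. Ptr4CL5 was at 8.10% in i15-1, at 9.82 and 14.4% in i15-2, and at 9.34, 3.10 and 17.0% in i15-3. No i15 pool came near the wildtype pools of the batch, which lay between 91.5 and 112% for Ptr4CL3 and between 94.0 and 109% for Ptr4CL5. The lowest pool for both was i15-3-2, with 101 counts of Ptr4CL3 and 47 of Ptr4CL5.

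Ptr4CL3 fell by 4.41 on the log2 scale in i15 (standard error 0.53, 6 pools against 3, edgeR adjusted p = 0.000641), and its mean was 4.67% ± 2.68 (SD, n = 6) of wildtype. Ptr4CL5 fell by 3.26 (standard error 0.40, edgeR adjusted p = 0.000693), to a mean of 10.3% ± 4.91 (SD, n = 6). In i15, 25.9% of all genes tested were called lower, so a call alone is common in this construct. The i15 libraries also differed widely from wildtype over all genes. Their root mean square log2 difference from the wildtype mean (the distance, over genes whose mean reached 1 CPM) was 0.868 to 1.93, against 0.187 to 0.276 in the wildtype pools of the batch.

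In a12, directed at 4CL3, the level of Ptr4CL3 differed between the 3 lines. Ptr4CL3 was at 23.2 and 23.8% of wildtype in line a12-4, at 69.3, 57.4 and 69.1% in a12-7, and at 23.4, 12.4 and 10.9% in a12-10. All 8 pools were below all 3 wildtype pools. Ptr4CL5, which a12 does not target, was at 146 and 218% in a12-4, at 102, 86.4 and 97.9% in a12-7, and at 116, 89.2 and 63.6% in a12-10. Its pools lay on both sides of wildtype, and only those of a12-4 and 1 of a12-10 were above all wildtype pools.

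As a construct, a12 did not pass the test for either gene. The fitted log2 change of Ptr4CL3 was -1.48 (standard error 0.52, unadjusted p = 0.0157 and adjusted p = 0.205 by edgeR), with 0.229% of all genes called lower. For Ptr4CL5 it was 0.20 (standard error 0.31, edgeR adjusted p = 0.766). Means were 36.2% ± 24.8 (SD, n = 8) for Ptr4CL3 and 115% ± 48.0 for Ptr4CL5. Taking each line alone against the 3 wildtype pools, a comparison added after the values were seen, Ptr4CL3 fell by 2.08 in a12-4 (standard error 0.13, 2 pools, edgeR adjusted p = 0.00122) and by 0.64 in a12-7 (standard error 0.10, 3 pools, edgeR adjusted p = 0.00982). Those lines had 7.19 and 5.46% of all genes called lower. In a12-10 the fitted change of Ptr4CL3 was -2.67 (standard error 0.35, unadjusted p = 0.000194, edgeR adjusted p = 0.192), and 0.0% of genes were called lower there (2108 at an unadjusted p below 0.05). The distance from wildtype was 0.376 in a12-10-1 but 1.04 and 1.11 in a12-10-2 and a12-10-3, and its part in these values was not tested.

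Ptr4CL5 rose in line a12-4, by 0.88 on the log2 scale (standard error 0.17, edgeR adjusted p = 0.0213). Upward calls were common in that line, with 2437 of the 26674 genes tested called higher. Leaving out wildtype pool 2 or 3 moved that adjusted p to 0.0745 and 0.0605, with log2 changes of 0.83 and 0.85. In a12-7 and a12-10 the log2 changes of Ptr4CL5 were -0.09 and -0.15 (edgeR adjusted p = 0.54 and 0.688). In this construct, then, the untargeted member was above wildtype in 1 line of 3.

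Construct a13, directed at 4CL5, also differed between its lines. Ptr4CL5 was at 106, 81.9 and 86.8% of wildtype in a13-4, at 26.7 and 30.5% in a13-6, and at 63.1, 64.2 and 64.2% in a13-20. Ptr4CL3, the untargeted member, was at 92.7, 57.1 and 103% in a13-4, at 20.7 and 36.8% in a13-6, and at 116, 94.9 and 81.4% in a13-20. Line a13-6 was thus low in both transcripts, a13-20 in Ptr4CL5 with Ptr4CL3 on both sides of wildtype, and a13-4 overlapped wildtype for both.

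As a construct, a13 passed for neither gene. The log2 change of Ptr4CL5 was -0.62 (standard error 0.36, edgeR adjusted p = 0.737) and that of Ptr4CL3 was -0.42 (standard error 0.44, edgeR adjusted p = 0.788), with 0.0% of all genes called lower by edgeR. At an unadjusted p below 0.05 edgeR had 710 genes lower, and DESeq2 called 74 lower after adjustment. Means were 65.4% ± 26.99 (SD, n = 8) for Ptr4CL5 and 75.3% ± 33.7 for Ptr4CL3. By line, Ptr4CL5 fell by 0.67 in a13-20 (standard error 0.09, 3 pools, edgeR adjusted p = 0.0399, 0.237% of genes called lower). That call was lost when any of the wildtype pools was left out (edgeR adjusted p = 0.0877, 0.118 and 0.126). In a13-6 Ptr4CL5 fell by 1.80 (standard error 0.15, 2 pools, edgeR adjusted p = 0.00155) and Ptr4CL3 by 1.79 (standard error 0.35, edgeR adjusted p = 0.0105). The 2 pools of a13-6 had distances from wildtype of 1.43 and 1.34, against 0.339 to 0.478 in the other a13 pools, and 24.1% of all genes were called lower in that line. The part of this wide change in the level of the pair was not tested. In a13-4 the changes were -0.13 for Ptr4CL5 and -0.25 for Ptr4CL3 (edgeR adjusted p = 0.651 and 0.618), with 0.00387% of genes called lower.

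**Figure D2:**
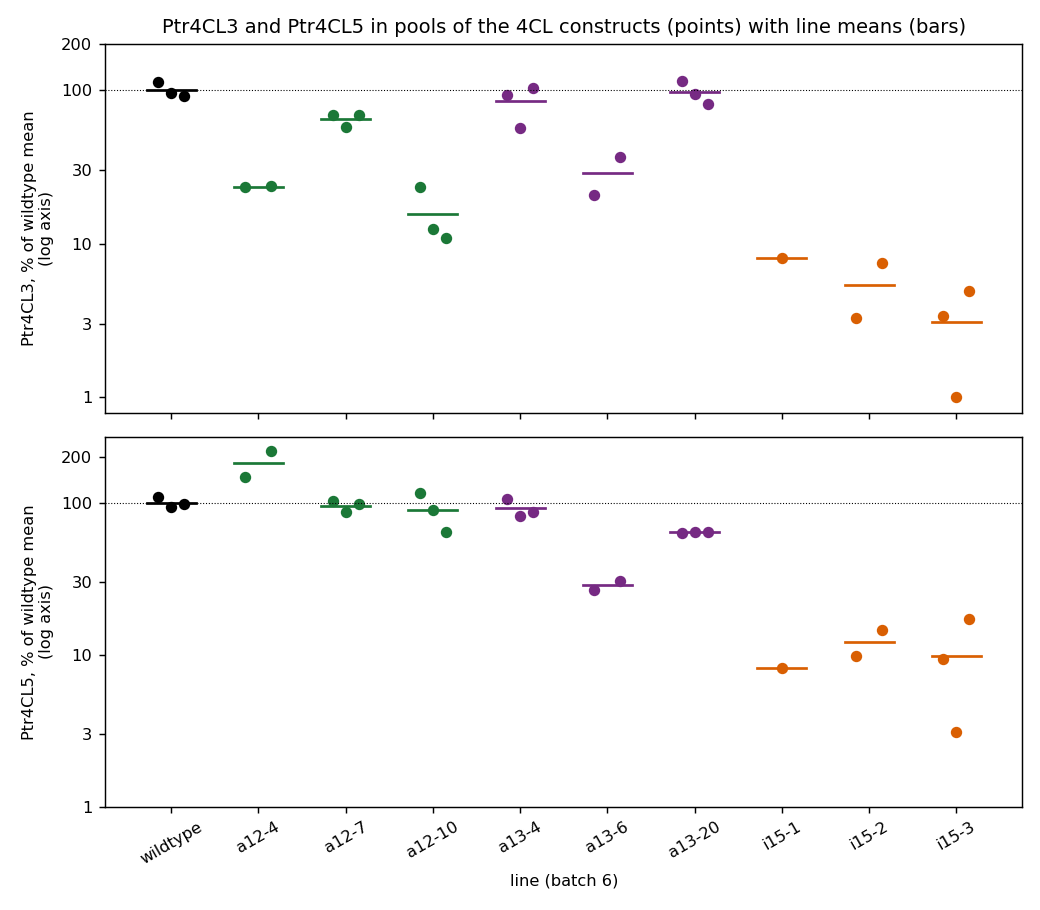
Percent of the wildtype mean (log axis) of Ptr4CL3 (top) and Ptr4CL5 (bottom) in the pools (points) of each line of a12 (green), a13 (purple) and i15 (orange) and in wildtype of batch 6 (black), with line means (bars). All i15 pools lay at or under 8.03% for Ptr4CL3 and 17.0% for Ptr4CL5, a12-4 held 23.2 and 23.8% of Ptr4CL3 with 146 and 218% of Ptr4CL5, and a13-6 was low in both.

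The lines of i15 were also taken one at a time. In i15-1, i15-2 and i15-3 the log2 changes of Ptr4CL3 were -3.64, -4.20 and -4.99 (edgeR adjusted p = 0.000494, 0.00719 and 0.000571). For Ptr4CL5 they were -3.62, -3.01 and -3.32 (edgeR adjusted p = 0.000437, 0.00452 and 0.00199). These lines had 24.1, 15.9 and 32.7% of all genes called lower. Both members were called lower in i15-2 and in i15-3. Line i15-1 is a single pool, fewer than the 2 asked of other lines, and its p-values assume that it varies like the wildtype pools, so they carry no replicate check of that line. Without wildtype pool 2 the adjusted p of Ptr4CL3 in i15-2 became 0.0531.

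The constructs were then set against each other in one fit of a12, a13, i15 and wildtype of batch 6. Ptr4CL3 was lower in i15 than in a12, with a log2 difference of -2.93 (standard error 0.52, edgeR adjusted p = 0.000565). The pools of i15 (0.994 to 8.03%) and of a12 (10.9 to 69.3%) did not overlap, and 28.8% of all genes were called lower in this contrast. Ptr4CL3 was also lower in i15 than in a13, with a log2 difference of -3.99 (standard error 0.55, edgeR adjusted p = 0.000384), where 27.5% of genes were called lower.

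Ptr4CL5 was lower in i15 than in a13, which targets it alone, with a log2 difference of -2.65 (standard error 0.36, edgeR adjusted p = 0.000384), and lower than in a12, where the log2 difference was -3.46 (standard error 0.38, edgeR adjusted p = 2.17e-05). Between the artificial microRNA constructs the members moved in opposite directions without passing the test adjusted over all genes. The log2 difference of a12 against a13 was -1.06 for Ptr4CL3 (standard error 0.43, edgeR adjusted p = 0.565) and 0.82 for Ptr4CL5 (standard error 0.31, edgeR adjusted p = 0.479). The unadjusted p-values were 0.0221 and 0.014, and 0.0173% of all genes were called in either direction. Adjusted over only the 6 values of the members in these contrasts, the edgeR p-values were 0.0221 and 0.0168. The rest of those 6 are i15 values with far smaller p, so this adjustment hardly moves the unadjusted p and settles nothing. With single lines left out in turn, the unadjusted edgeR p ran from 0.000262 to 0.166 for Ptr4CL3. For Ptr4CL5 it ran from 0.00227 to 0.12.

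The ratio of Ptr4CL3 to Ptr4CL5 counts within a library needs no scaling between libraries. In wildtype of batch 6 it was 6.94, 6.85 and 6.31, and over all wildtype pools it ran from 2.97 to 8.84. In a12 it was 1.06 and 0.733 in a12-4, 4.55, 4.46 and 4.74 in a12-7, and 1.36, 0.933 and 1.15 in a12-10. All a12 pools were below all wildtype pools of the batch. In a13-20 it was 12.3, 9.91 and 8.51, above all of them.

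In a13-4 the count ratio was 5.86, 4.67 and 8.00, and in a13-6 it was 5.20 and 8.08, on both sides of wildtype. In i15 it was 6.65 in i15-1, 2.23 and 3.45 in i15-2, and 2.44, 2.15 and 1.93 in i15-3, so that 5 of 6 pools were below wildtype. Relative to wildtype the mean log2 ratio changed by -1.90 in a12 (SD 1.15, n = 8), by -1.24 in i15 (SD 0.67, n = 6) and by 0.15 in a13 (SD 0.48, n = 8). By a two-sided exact permutation test against the 3 wildtype pools these gave p = 0.0303, 0.0357 and 0.594. Here and for the other constructs this test takes pools and not lines as the unit. Pools of a line share a transformation event, so they are not independent. Adjusted over the 45 constructs the exact p became 0.263, 0.263 and 0.767, and none passed. The smallest exact p that 8 against 3 pools allow is 0.00606, and 6 against 3 allow 0.0119. A single construct at either value would not pass once adjusted over the 45. With these pool numbers the adjusted test could therefore not call a construct alone.

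**Figure D3:**
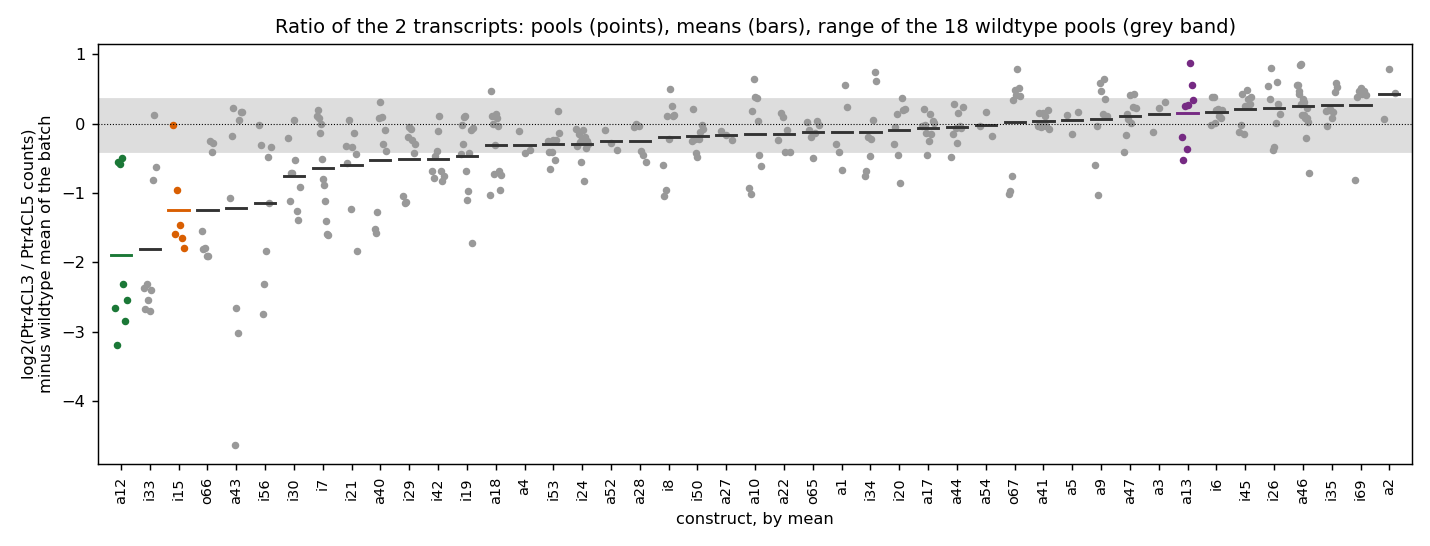
Log2 ratio of Ptr4CL3 to Ptr4CL5 counts in each pool (points) minus the wildtype mean of its batch, by construct in the order of the construct means (bars), with a12 green, a13 purple, i15 orange and the range of the 18 wildtype pools as a grey band. The lowest means are those of a12 (-1.90), i33 (-1.81), i15 (-1.24) and o66 (-1.24).

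The other constructs were asked whether the pair moved when another gene was the target. Levels of Ptr4CL3 in the 338 libraries ran from 4.89 to 141% of wildtype with a median of 81.9%, and those of Ptr4CL5 from 6.58 to 270% with a median of 86.0%. Ptr4CL3 was below all 3 wildtype pools of its batch in 173 libraries and above them in 8, which is 51.2 and 2.37% of the 338. Across 25790 genes, all those whose mean reached 1 CPM, the median gene was below in 27.5% and above in 27.5%. From the 5th to the 95th percentile of genes, the share below ran from 10.7 to 48.2% and the share above from 10.9 to 49.4%. Ptr4CL5 was below in 162 libraries (47.9%) and above in 73 (21.6%). Ptr4CL3 lay outside both of these ranges, and Ptr4CL5 lay inside both, near the upper edge for the share below. Ptr4CL3 was thus rarely above wildtype in any planting, and Ptr4CL5 was found on both sides. Libraries of a batch share their 3 wildtype pools, so these counts are not independent.

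Each construct tested against its own wildtype gave few calls. Ptr4CL3 was called lower in 1 of 42 constructs and higher in 0, and Ptr4CL5 lower in 2 and higher in 0 (edgeR, adjusted p below 0.05). Over all genes and these constructs, 1.88% of the tests were called lower and 2.13% higher, so 1 and 2 calls among 42 constructs are close to the background. At an unadjusted p below 0.05 there were 9 constructs for Ptr4CL3 and 6 for Ptr4CL5 in either direction. DESeq2 called Ptr4CL3 lower in 2 and Ptr4CL5 lower in 4, and higher in 0 for both. The fitted log2 changes had a median of -0.35 (range -1.28 to 0.05) for Ptr4CL3 and of -0.15 (range -1.04 to 0.36) for Ptr4CL5. Which constructs were called depended on the fit. With all constructs of a batch in one fit, Ptr4CL3 was called lower in a43 (edgeR adjusted p = 0.0467) and Ptr4CL5 in i35 (edgeR adjusted p = 0.0301), and in no other of the 42. DESeq2 called i20 and i53 for Ptr4CL3. Without wildtype pool 2 or 3 of each batch, no construct was called for either gene.

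The construct called for Ptr4CL3 was o66, with CAD1 knocked down and CAD2 overexpressed, where 16.6% of all genes were called lower. CAD makes the final reduction to monolignols. In o66, Ptr4CL3 was at 37.9, 38.1 and 32.1% of wildtype in line o66-21, at 32.1 and 31.1% in o66-30, and at 77.0, 80.9 and 76.7% in o66-7. It fell by 0.97 (standard error 0.34, edgeR adjusted p = 0.0445). The adjusted p was 0.0459, 0.088 and 0.17 without wildtype pool 1, 2 and 3, 0.0516 by DESeq2 and 0.1003 with all constructs of the batch in one edgeR fit. Ptr4CL5 in the same pools was at 92.4 to 134%, with a log2 change of 0.17 (edgeR adjusted p = 0.349). The log2 ratio of the pair changed by -1.24 in o66 and its pools did not overlap wildtype (exact permutation p = 0.0303, 0.263 after adjustment over the 45 constructs).

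Ptr4CL5 fell in i45 and i8. Construct i45 is a knockdown of the regulators MYB090 and MYB167, and its pools of Ptr4CL5 ran from 58.1 through a median of 65.4 to 90.5% of wildtype. The log2 change there was -0.55 (standard error 0.12, edgeR adjusted p = 0.0235), with 2.23% of genes called lower. Construct i8 is a knockdown of PAL1 to PAL5, the enzymes that open the pathway, and its pools of Ptr4CL5 ran from 57.0 through 75.8 to 88.8%. The log2 change was -0.46 (standard error 0.12, edgeR adjusted p = 0.0271), with 5.18% of genes called lower. Without wildtype pool 1, 2 and 3 the edgeR adjusted p of Ptr4CL5 was 0.0402, 0.157 and 0.0981 in i45 and 0.034, 0.133 and 0.0933 in i8. With all constructs of the batch in one edgeR fit it was 0.393 and 0.514. Ptr4CL3 in these constructs had log2 changes of -0.34 and -0.59 (edgeR adjusted p = 0.143 and 0.168).

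By construct mean outside the 4CL constructs, Ptr4CL3 was lowest and Ptr4CL5 highest in i33, a knockdown of CAD1. In i33, Ptr4CL3 was at 22.2, 22.3 and 26.4% in line i33-10, at 27.1, 26.2 and 25.2% in i33-2, and at 62.1, 94.1 and 63.2% in i33-5. Ptr4CL5 was at 115, 144 and 132% in i33-10, at 159, 172 and 135% in i33-2, and at 110, 87.3 and 99.0% in i33-5. The pools of i33-10 and i33-2, low in Ptr4CL3, were above the wildtype mean for Ptr4CL5, and the wildtype pools of batch 3 ran from 86.8 to 124% for that gene. Distances from wildtype in this construct were 0.306 to 0.568, in the range of other constructs (median 0.504).

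The i33 values did not pass as a construct (log2 change -1.28, standard error 0.43, edgeR adjusted p = 0.253 for Ptr4CL3, and 0.36, standard error 0.19, adjusted p = 0.375 for Ptr4CL5). The log2 ratio of the pair changed by -1.81 (exact permutation p = 0.0136, 0.263 after adjustment). Taken alone, line i33-2 passed for Ptr4CL3, which fell by 1.93 (standard error 0.20, edgeR adjusted p = 0.0149, 4.31% of genes called lower), and its Ptr4CL5 change was 0.63 (edgeR adjusted p = 0.063). Line i33-10 had a change of -2.09 for Ptr4CL3 (standard error 0.21, edgeR adjusted p = 0.126), and 0 genes were called lower there. The unadjusted edgeR p of Ptr4CL3 was 2.95e-05 in i33-10 and 2.89e-05 in i33-2.

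The reverse extremes were a27 and i35. Ptr4CL3 had the highest of its construct means in a27, a knockdown of CAld5H1, at 106% ± 12.2 (SD, n = 3), with pools of 120, 101 and 97.4%. Its wildtype pools in batch 5 ran from 58.0 to 125%, so a27 lay within them. Ptr4CL5 had its lowest mean outside the 4CL constructs in i35, a knockdown of CAD1 and CAD2, at 48.6% ± 31.2 (SD, n = 9). There, line i35-7 was at 11.3, 6.58 and 8.10% for Ptr4CL5 and at 15.4, 9.82 and 11.6% for Ptr4CL3, while i35-1 and i35-15 were at 55.3 to 83.9% for Ptr4CL5 and at 62.7 to 89.2% for Ptr4CL3. The 3 pools of i35-7 had distances from wildtype of 0.959, 0.988 and 0.944, against 0.561 to 0.639 in the other lines, and what that carries into the pair was not tested.

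In the order of construct means, the 12 constructs of batch 2 held Ptr4CL3 at 53.1% of wildtype in a43, 56.5 in i42, 62.3 in a40, 67.1 in i8, 72.8 in i6, 79.8 in i45, 84.3 in a44, 90.6 in a4, 92.8 in a3, 93.8 in a41, 97.3 in a47 and 105 in a5. Batch 1 held it at 63.9 in i7, 77.8 in o67, 79.6 in a1 and 99.2 in a2, and batch 4 at 65.7 in i26, 67.03 in a9, 72.8 in a10 and 85.6 in a46. In batch 3 the means were 40.97 in i33, 50.7 in o66, 53.6 in i35, 71.3 in i20, 71.4 in i34, 77.6 in o65 and 96.8% in i69. The lowest means in batches 1 to 3 belonged to constructs aimed at PAL2, PAL4 and PAL5 (i7), at MYB167 (a43) and at CAD1 (i33). Batch 5 ran from 55.2 in i56 through 69.8 in i19, 77.7 in a18, 79.4 in i29, 83.1 in a52, 85.2 in a54, 86.3 in a22, 87.5 in i50, 96.6 in a17 and 99.1 in a28 to 106 in a27. In batch 6 the constructs outside 4CL had 55.0 in i30, 69.05 in i21, 86.4 in i53 and 96.1% in i24. Of the 44 neighbouring pairs in the order of all 45 means of Ptr4CL3, the pools overlapped in all but 1, the pair of i15 and a12.

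For Ptr4CL5 the means in batch 2 were 65.7% in i6, 69.2 in i45, 73.4 in i8, 77.3 in i42, 84.4 in a40, 85.2 in a3, 88.8 in a44, 91.9 in a41, 92.9 in a47, 102 in a5, 114 in a4 and 120% in a43. Batch 1 had 67.3 in o67, 75.0 in a2, 85.0 in a1 and 90.6 in i7, and batch 4 had 58.4 in a9, 59.6 in i26, 76.3 in a46 and 78.3% in a10. Batch 3 had 48.6 in i35, 77.5 in i34, 78.4 in i69, 82.1 in i20, 86.2 in o65, 112 in o66 and 128% in i33. Construct a43 had the lowest mean of batch 2 for Ptr4CL3 and the highest for Ptr4CL5, but the median of its pools was 84.8% for Ptr4CL5. Without the 3 libraries of a43-13, all farther than 1 from wildtype, its log2 change of Ptr4CL5 went from 0.28 to -0.45 (edgeR adjusted p = 0.774 and 0.451). Batch 5 had 90.04 in a54, 91.5 in i19, 96.7 in a18, 100.3 in a22, 103 in a52, 104 in i50, 105 in a17, 111 in i56, 115 in i29, 122 in a28 and 124% in a27. In batch 6 the means were 87.9 in i30, 91.4 in i21, 108 in i53 and 118% in i24. No neighbouring pair in the order of Ptr4CL5 means was free of overlap, so single steps in that order are within the spread of pools.

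**Figure D4:**
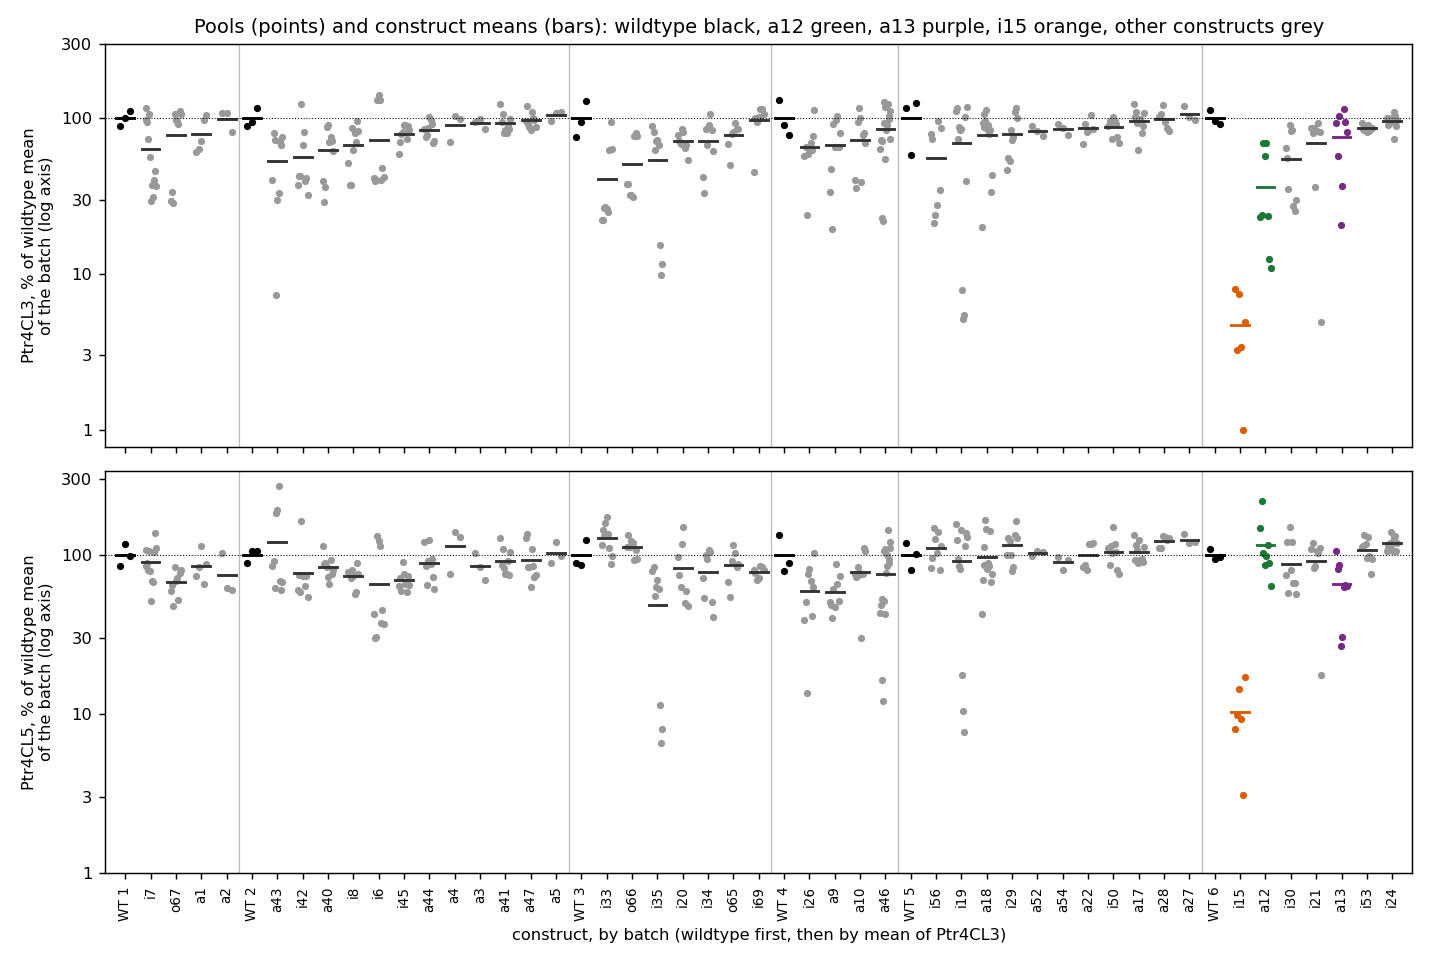
Percent of the wildtype mean of the batch (log axis) of Ptr4CL3 (top) and Ptr4CL5 (bottom) in each pool (points) with construct means (bars), by batch, wildtype first (black) and then by the mean of Ptr4CL3, with a12 green, a13 purple, i15 orange and other constructs grey. Pools under 10% outside i15 belong to lines i19-7 and i35-7 and to the libraries i21-8-2 and a43-13-1.

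In most constructs the lines differed more than the pools of a line. Over 37 constructs with at least 2 lines of 2 pools, the median SD of log2 percent within a line was 0.24 for Ptr4CL3, and that between line means was 0.60. For Ptr4CL5 these were 0.24 and 0.35. The SD between line means was the larger in 26 of the 37 constructs for Ptr4CL3 and in 23 for Ptr4CL5.

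Each line with at least 2 pools was therefore also set alone against its wildtype, a comparison added after the values were seen. Of 112 lines of 38 constructs outside 4CL, Ptr4CL3 was called lower in 17 and higher in 0, and Ptr4CL5 lower in 12 and higher in 1 (edgeR, adjusted p below 0.05). Over all genes and these lines 2.02% of the tests were called lower and 2.14% higher, so lower calls of the pair came more often than that background and higher calls did not. At an unadjusted p below 0.05 there were 34 lines for Ptr4CL3 and 37 for Ptr4CL5. Both members were called lower in 8 lines, which are 8 of the 17 and 8 of the 12. Without each wildtype pool in turn the counts of lower calls ran from 15 to 19 for Ptr4CL3 and from 8 to 13 for Ptr4CL5. Lines of a batch share their wildtype pools.

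Among the lines outside 4CL in which Ptr4CL3 was called lower, the largest falls were in i19-7, i35-7 and a43-13. Line i19-7, from a knockdown of HCT1 and HCT6, had Ptr4CL3 at 7.93, 5.17 and 5.48% and Ptr4CL5 at 17.7, 10.5 and 7.68%. Its log2 changes were -3.94 and -2.99 (edgeR adjusted p = 0.000864 and 0.0011), and 24.7% of all genes were called lower in it. The other lines of i19 were at 39.7 to 119% for Ptr4CL3 and at 81.0 to 156% for Ptr4CL5. Distances from wildtype were 1.57, 1.58 and 1.499 in i19-7 and 0.388 to 0.548 in the others. Line i35-7 had changes of -3.02 for Ptr4CL3 and -3.52 for Ptr4CL5 (edgeR adjusted p = 0.000222 and 0.000132), with 24.8% of all genes called lower.

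In a43-13, from a knockdown of MYB167, the members moved apart. Ptr4CL3 was at 7.33, 30.0 and 33.2% and fell by 2.08 (standard error 0.56, edgeR adjusted p = 0.0154). Ptr4CL5 was at 183, 190 and 270% and rose by 1.12 (standard error 0.27, edgeR adjusted p = 0.00963), the only line outside the 4CL constructs called higher for it. Calls were common in a43-13, with 25.1% of all genes tested called lower and 24.9% higher. Totals of these libraries were 2.12, 2.86 and 11.3 M counts and their distances from wildtype 1.66, 1.12 and 1.15, with 20.1% of the counts of a43-13-1 in 10 genes. The other lines of a43 were at 60.2 to 91.5% for Ptr4CL5. Without the lines that hold a library farther than 1 from wildtype, Ptr4CL5 was called higher in 0 lines and lower in 11, and Ptr4CL3 lower in 15.

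Among lines in which both members fell together, i6-4 and i6-9 of the PAL1 and PAL3 knockdown had Ptr4CL3 at 39.3 to 47.6% and Ptr4CL5 at 30.2 to 45.2%. Their log2 changes were -1.33 and -1.24 for Ptr4CL3 and -1.56 and -1.36 for Ptr4CL5 (edgeR adjusted p between 0.000144 and 0.00132), with 5.45 and 1.49% of all genes called lower. The remaining line of that construct, i6-5, stood at 132 to 141% for Ptr4CL3 and 114 to 131% for Ptr4CL5, with changes that did not pass (edgeR adjusted p = 0.168 and 0.226). Line i30-15, of the AldOMT2 knockdown, had a fall by 1.86 for Ptr4CL3 and by 0.66 for Ptr4CL5 (edgeR adjusted p = 0.000202 and 0.0044), with 12.3% of all genes called lower.

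Over the libraries of the other constructs, both members were below all wildtype pools of the batch in 119 of 338, and both above in 6. Ptr4CL3 was below with Ptr4CL5 above in 29, and the opposite was seen in 1. Taken singly, Ptr4CL3 was below in 173 and above in 8, and Ptr4CL5 below in 162 and above in 73. Joint counts were not made for other pairs of genes, so those of this pair have no background to be read against. Low levels went with libraries far from wildtype. Pearson's r of the log2 level with the distance was -0.59 for Ptr4CL3 and -0.48 for Ptr4CL5 over these 338 libraries, a description of libraries that share lines and wildtype pools. Over all genes the median of that r was -0.01, and from the 5th to the 95th percentile it ran from -0.65 to 0.46. Both members thus lay toward the low end of all genes, and within its central range. What the overall state of a library carries into the level of the pair was not tested.

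**Figure D5:**
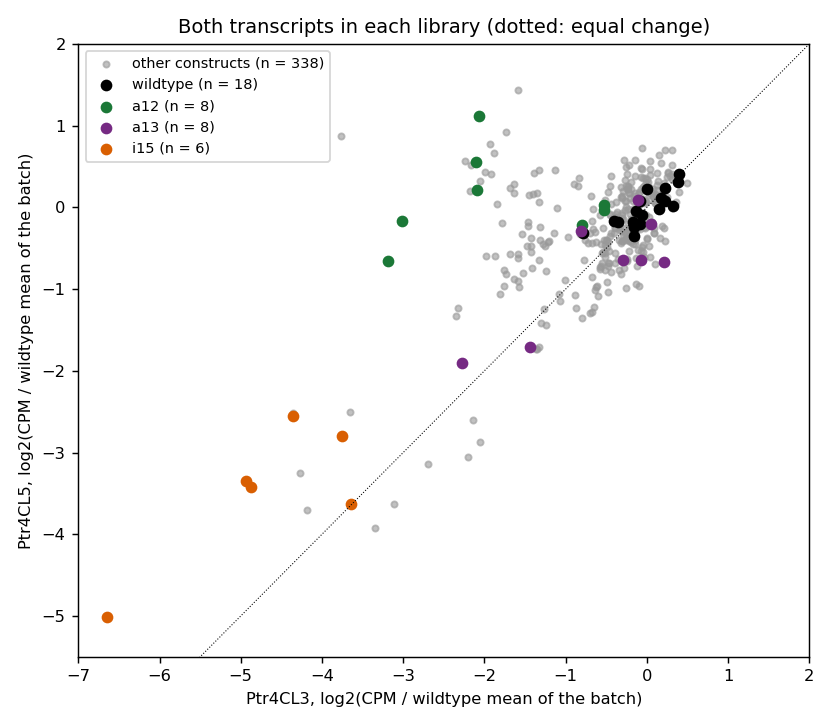
Log2 of the level relative to the wildtype mean of the batch for Ptr4CL3 (horizontal) and Ptr4CL5 (vertical) in all 378 libraries, with wildtype black, a12 green, a13 purple, i15 orange and the 338 libraries of other constructs grey, and equal change as a dotted line. Libraries to the upper left have low Ptr4CL3 with Ptr4CL5 near or above wildtype. In 29 libraries of other constructs and 3 a12 pools, Ptr4CL3 was below and Ptr4CL5 above all wildtype pools of the batch.

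Across the 42 constructs outside 4CL, the mean log2 levels of the members were weakly related. Pearson's r was 0.32 (permutation p = 0.0374) and Spearman's rho 0.33 (permutation p = 0.0323). Adjusted over the 4 relations computed, the permutation p-values were 0.0817 and 0.129, and the relation did not pass. Within batch 5 (11 constructs) r was 0.64 and rho 0.55 (permutation p = 0.0409 and 0.0859). Within batch 2 (12 constructs) r was 0.31 and rho 0.38 (permutation p = 0.323 and 0.22). In batch 3 (7 constructs) r was -0.003 and rho -0.14 (exact permutation p = 0.997 and 0.783). The other batches held 4 such constructs each, too few for a value. Without i33 and i35, the constructs farthest from the median of Ptr4CL3, r was 0.34.

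Genes whose levels followed each member were ranked by Pearson's r of log2(CPM + 1) centred on the batch, over the 356 libraries outside a12, a13 and i15 and 25758 genes. The closest to Ptr4CL3 were Potri.004G226800 (r = 0.75) and Potri.001G352300 (r = 0.75). The closest to Ptr4CL5 were Potri.001G118800 (r = 0.78) and Potri.015G141400 (r = 0.77). The members had r = 0.56 with each other, which placed Ptr4CL5 at rank 1732 in the list of Ptr4CL3 and Ptr4CL3 at rank 520 in the list of Ptr4CL5. In the 18 wildtype libraries alone their r was 0.79, at ranks 740 and 68 of 25289 genes. Many genes were therefore closer to each member than its partner, and these identifiers carry no names here.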

How the data were processed

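The deposited values are raw counts per gene, 1 column per library, which the authors made from TruSeq libraries read on an Illumina GAIIx. Bowtie and TopHat placed the reads on genome version v3.0, and BedTools counted them. How reads matching both paralogs were counted is not given in the sources used here. No column was left without a sample. A library of line a12-4 has different pool numbers in the table and the labels and was used without a number.

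Members and lists were chosen with earlier results of these data known. Each construct or line was tested against the 3 wildtype pools of its batch in R 4.3.3 with edgeR 4.0.16 (filterByExpr, TMM, estimateDisp, glmQLFit, glmQLFTest, Benjamini-Hochberg adjustment over all genes, threshold 0.05). A standard error is the log2 change divided by the square root of F. Nothing in the labels says that the pools were grown apart, so p-values measure the spread between these pools. DESeq2 1.42.0, other scalings, filters and left-out pools were alternatives. Percentages used 1 TMM scaling of all 378 libraries over 33003 genes. Ratios used a pseudocount of 0.5 and the distance 0.5 CPM. Relations used 100000 permutations, in SciPy 1.17.1 under Python 3.11.15, with pandas 2.3.3 and NumPy 2.4.6, and matplotlib 3.10.9 drew the figures. The tests were run first on simulated data.

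Singly named constructs are those called for either member and the highest and lowest means, and the lines named beside them were chosen after their values were seen. For likeness the first 2 of 5 identifiers are given. The table of 34621 RefSeq genes matched 0 identifiers, so the planned counts over other monolignol genes and the tissue markers were not run.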

Additional observations from a re-analysis of the deposited data

Results flagged for a closer look

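In 99 groups of 4 to 10 pools (construct by Ptr4CL3, Ptr4CL5 or their log2 ratio), 5 values stood far from the others of their construct. Chance gives about 1 in 20 groups, so this number is near what chance gives. Library i69-10-1 was at 45.3% of wildtype for Ptr4CL3, with the next pool of i69 at 95.3%, and its log2 ratio of the pair was -0.81 relative to wildtype, with the next at 0.39. For Ptr4CL5, i42-5-1 was at 163% with the next highest at 75.2%, a10-14-3 was at 30.0% with the next lowest at 72.3%, and i21-8-2 was at 17.5% with the next lowest at 83.2%.

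In 13 cases every pool of 1 line stood above the wildtype mean and every pool of another line of the same construct below it. These differences between lines were not tested. No share over all genes is given here, so the count has no background to be read against. For Ptr4CL3 the line means were 135% in i6-5 against 40.2% in i6-4, 113% in a17-1 against 98.8% in a17-4, and 110% (109.9) in a28-H against 88.3% in a28-L. For Ptr4CL5 the widest gaps were 215% in a43-13 against 65.3% in a43-17, 127% in i19-8 against 12.0% in i19-7 and 123% in i6-5 against 34.3% in i6-4. Smaller ones were 133% in i20-2 against 52.2%, 141% in a18-4 against 65.96%, 118% in i7-8 against 62.4%, 105% in i34-6 against 45.7%, 117% in a22-17 against 83.3%, 125% in i56-3 against 89.0% and 119% in i53-5 against 89.5%.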

How the results depend on the processing

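The falls of both members in i15, and the differences of i15 from a12 and a13, kept their direction and their call under every alternative run. Against wildtype, a12 and a13 passed under none. Leaving out a line or a wildtype pool gave log2 ranges of -4.64 to -3.98 and -3.39 to -3.19 for Ptr4CL3 and Ptr4CL5 in i15, -2.41 to -1.07 and -0.12 to 0.37 in a12, and -0.68 to -0.15 and -1.01 to -0.37 in a13. With the pool number as a replicate block the log2 change of Ptr4CL5 in a12 became -0.067 and no other direction or call changed. The pool of a12-4 without a number was dropped there, and same-numbered pools did not deviate together.

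Constructs called lower for Ptr4CL3 numbered 2 by DESeq2 and 0 with the pools of a line added up. For Ptr4CL5 they numbered 4 by DESeq2, 1 with all constructs of a batch in one fit and 1 among constructs listed in the paper. Without each wildtype pool in turn they ran from 0 to 2 for both genes, and were 0 throughout where the batch was also in one fit. Lines called higher ran from 0 to 1 for Ptr4CL3 and from 1 to 4 for Ptr4CL5 without each wildtype pool, and for Ptr4CL5 fell to 0 without lines holding a library far from wildtype or of uneven counts. The span of wildtype batch means ran from 1.00 to 1.61 for Ptr4CL3 and from 0.74 to 1.19 for Ptr4CL5 without each pool. The change of Ptr4CL3 in a13-20 ran from -0.13 to 0.038 likewise. The correlation across constructs was 0.30 with RLE factors, 0.13 with medians over pools and 0.28 when centred on the batch, and 0.41 among constructs listed in the paper, 0.36 without far libraries and 0.34 without uneven ones. The cause of each of these changes was not tested. With 3 wildtype pools a batch, small changes can be missed, and the smallest change that could be called was not computed.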
